A study of Homo sapiens with 20 samples.

Results

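The genes described here are the hnRNP, SNRP and LSM genes, whose products bind pre-mRNA and build the small nuclear ribonucleoproteins (snRNPs) of the spliceosome. They were taken by symbol: names that start with HNRNP, SNRP or LSM followed by a letter or digit, without a hyphen and without a final P plus digits, with 50 or more counts summed over the 20 libraries. This gave 44 genes of 50775 gene rows, 19 HNRNP, 12 SNRP and 13 LSM genes. All 44 were among the 16698 genes that passed the filter on low counts. The symbols HNRNPCL1, with 4 counts, and SNRPEL1, with 30, met the name rule but not the minimum, and the lowest kept were SNRPN with 467 counts and HNRNPA1L2 with 1164.

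RNA was sequenced from 5 established human cancer cell lines, with torkinib and without, to learn how inhibition of MTOR changes the RNA of genes for DNA repair. Torkinib (PP242) blocks the catalytic site of MTOR, the kinase at the centre of 2 growth-control complexes. It was given for 72 h at 10 µM to 94T778, a well differentiated liposarcoma line, at 4 µM to A375 and SKMEL28, both melanoma lines, and to AU565, a breast cancer line, and at 0.8 µM to SKBR3, a breast cancer line. Untreated cells of the same line, for which no time is given, were the controls. Each of the 10 groups held 2 libraries. The labels say that the concentrations were those that arrested the cycle with viability kept, so the dose differs between lines and, except among A375, SKMEL28 and AU565, line and dose cannot be told apart.

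The spliceosome is assembled from snRNPs, each a small nuclear RNA held in a ring of Sm proteins (U1, U2, U4 and U5) or of LSM proteins (U6). U1 recognises the start of an intron and U2 its branch point, and each carries proteins of its own beside the ring. A second LSM ring, with LSM1, acts in the cytoplasm on mRNAs about to be decapped, and a variant Sm ring with LSM10 and LSM11 sits on the U7 RNA that processes histone mRNAs. hnRNPs coat nascent transcripts and often oppose the use of splice sites, and several of them also carry mRNA to the cytoplasm or steady it there. MTOR is best known for its control of translation and ribosome production.

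The libraries held 4040023 to 9737903 counted reads, and the 44 genes took 0.611 to 1.1% of them. The 2 libraries of untreated SKBR3 stood apart from each other, with a chi-square per gene of 11.1 against 1.34 to 3.15 in the other 9 groups. In CPM, counts scaled for library size, the 12q amplicon genes summed to 12720 in torkinib-treated and 14510 in untreated 94T778 and to at most 1451 in any other group. Adipocyte genes did not mark 94T778, where ADIPOQ, LEP and CIDEC were at 0 in all libraries. Melanocyte genes summed to 11660 CPM in torkinib-treated and 8454 CPM in untreated SKMEL28 but only to 748.7 and 718.4 CPM in torkinib-treated and untreated A375, where TYR was at most 0.441 CPM in any library. In SKBR3 they summed to 9.21 and 11.2 CPM with torkinib and to 12.03 and 40.99 CPM in untreated replicates 1 and 2, and 6 of the 8 were called lower there. In untreated A375 the amplicon gene MDM2 had 248.8 and 119.2 CPM in replicates 1 and 2. Which of these untreated libraries stands apart was not settled. Breast genes summed to 11780 CPM or more in each SKBR3 and AU565 group and to 471.1 CPM or less in the others. Genes of mitosis fell: a list of 12 summed to 323.9, 570.3, 331.3, 74.22 and 106.8 CPM with torkinib in 94T778, A375, SKMEL28, SKBR3 and AU565, against 2324, 2508, 2193, 1492 and 1912 CPM in the same untreated lines, and all 12 were called lower on the average. The nuclear RNAs NEAT1 and MALAT1 together had 1685, 2397, 2202, 3197 and 3891 CPM with torkinib in the same order, against 565.1, 1347, 1302, 2962 and 1500 CPM untreated. In SKBR3 these 2 RNAs overlapped between the groups, at 3388 and 3006 CPM with torkinib and 3842 and 2082 CPM untreated, and neither was called. The change in mitosis genes runs beside every result below, that in the nuclear RNAs beside those of the other 4 lines, and their part in the results was not tested.

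Nearly all SNRP genes fell. On the average of the 5 lines 11 of the 12 were called lower with torkinib and none higher, where called means an adjusted p under 0.05 in edgeR's quasi-likelihood test over all 16698 genes. Of the 13 LSM genes 9 were called lower and none higher, and of the 19 HNRNP genes 13 were called lower and 4 higher. The shares over all genes tested were 28.1% lower and 28.4% higher. All genes tested, here and below, include genes with few counts. The members were not compared with genes of like counts. The SE and p of an average come from the spread of libraries within groups. They do not measure how far the response differs between lines. The median log2 fold change, torkinib over untreated, was -0.69 for the SNRP genes, -0.58 for the LSM genes and -0.15 for the HNRNP genes, beside -0.01 for all genes. Under upper-quartile scaling the split of the HNRNP genes was 10 lower and 6 higher, and that of all genes was 4051 lower and 5490 higher, against 4692 and 4734 with edgeR's TMM scaling. HNRNPC, HNRNPF and HNRNPK then lost their calls on the average (-0.06, -0.06 and -0.03). All 33 calls of a lower level and 3 of the 4 of a higher one on the average held with each of the 20 libraries left out in turn; that of HNRNPA1L2 was lost with any of 17 libraries out and was 0.17 without AU565 untreated replicate 1 (edgeR adjusted p = 0.153).

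In 94T778, 35 of the 44 genes were called lower and none higher, where 23.8% of all genes were called lower and 23.8% higher. A375 had 21 lower and 3 higher, against 24.3% and 18.5% of all genes. Upper-quartile scaling gave 18 lower and 6 higher in A375, with 3434 of all genes lower and 3929 higher, against 4051 and 3089 with TMM. SKMEL28 had 26 lower and 6 higher (all genes 23.7% and 20.4%), SKBR3 22 lower and 7 higher (all genes 26.7% and 24.6%), and AU565 30 lower and 4 higher (all genes 28.6% and 26.9%). The count of higher calls in SKMEL28 was 2 without torkinib replicate 1 and 3 without either untreated library, that in SKBR3 was 11 without untreated replicate 2, and that in AU565 was 1 without torkinib replicate 1 or either untreated library. The share of SNRP genes called lower was above that of all genes in each line, with 11, 9, 10, 9 and 10 of 12 in 94T778, A375, SKMEL28, SKBR3 and AU565. The LSM genes had 9, 4, 9, 7 and 8 of 13 in the same order. HNRNP genes called lower numbered 15, 8, 7, 6 and 12 of 19, beside 0, 3, 5, 5 and 3 called higher.

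**Figure D1:**
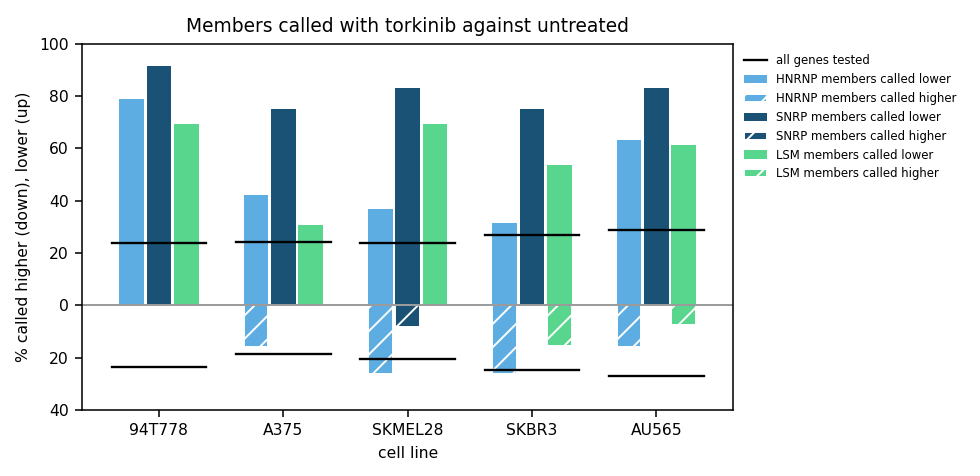
Share of each family called lower (plain bars, upwards) or higher (hatched bars, downwards) with torkinib, in percent of its members, by cell line; black lines mark the share over all 16698 genes tested. The SNRP bars for lower calls exceed the all-gene line in all 5 lines, and the HNRNP family has 0, 3, 5, 5 and 3 members on the higher side.

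The levels in single libraries, on which the calls also rest, are no separate evidence but show the data. In 94T778 both torkinib libraries lay below both untreated ones for 40 of the 44 genes and above them for 3, against 34.2% and 36.6% of all genes. The counts were 28 below and 6 above in A375 (all genes 37% and 32.1%), 34 below and 7 above in SKMEL28 (all genes 35.4% and 33.8%), 25 below and 9 above in SKBR3 (all genes 34.2% and 33.1%), and 34 below and 6 above in AU565 (all genes 36.9% and 37.5%).

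Called lower in all 5 lines were 15 of the 44 genes, against 4.62% of all genes tested. They were 8 SNRP genes, namely SNRPA, SNRPA1, SNRPB, SNRPB2, SNRPC, SNRPD1, SNRPF and SNRPG, then LSM2, LSM4 and LSM12, and HNRNPA2B1, HNRNPAB, HNRNPD and HNRNPL. No member was called higher in all 5 lines, against 2.26% of all genes. With each library left out in turn 10 of the 15 kept all 5 calls. The other 5 each lost a call of small size: HNRNPD and LSM12 in SKMEL28, SNRPC and SNRPD1 in A375, and SNRPB2 in 94T778 and SKBR3. HNRNPD in SKMEL28 lost it without untreated replicate 2 (-0.16), torkinib replicate 1 (-0.25) or torkinib replicate 2 (-0.21), and LSM12 in SKMEL28 without untreated replicate 2 (-0.34) or torkinib replicate 1 (-0.33). SNRPC in A375 lost it without untreated replicate 1 (-0.25) or torkinib replicate 2 (-0.22), and SNRPD1 in A375 without untreated replicate 1 (-0.18), torkinib replicate 1 (-0.22) or torkinib replicate 2 (-0.25). SNRPB2 in 94T778 lost it without any 1 of the 4 libraries of that line (-0.26 to -0.23). In SKBR3 SNRPB2 lost it without untreated replicate 2 (-0.17) or with the libraries of that line only (-0.31). Scaling ended some of these calls too: upper-quartile scaling that of HNRNPD in SKMEL28 (-0.15), and both upper-quartile scaling and library totals those of SNRPC (-0.19 and -0.22) and SNRPD1 (-0.145 and -0.17) in A375 and of SNRPB2 in 94T778 (-0.21 and -0.14).

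**Figure D2:**
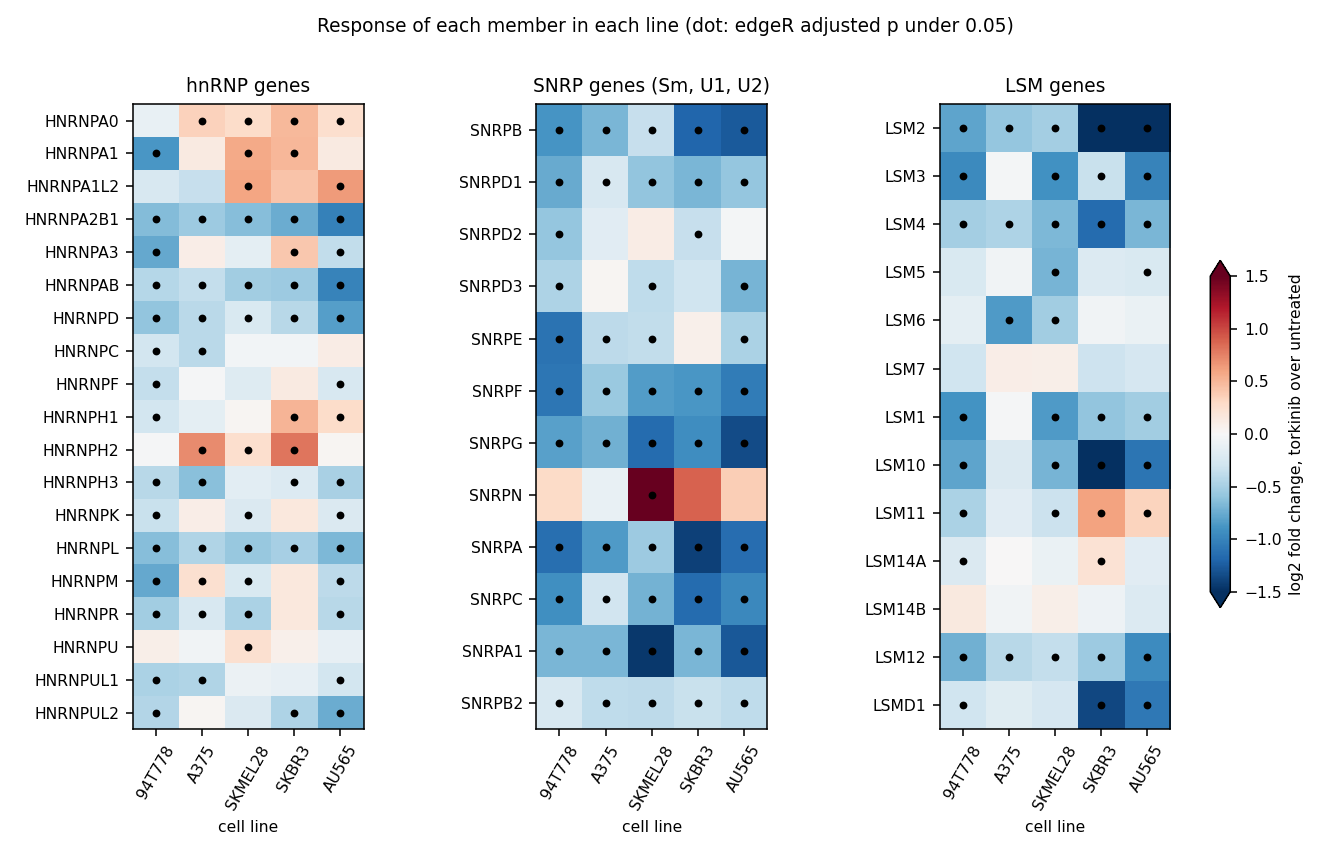
Log2 fold change, torkinib over untreated, of every member (rows) in every cell line (columns), by family; blue is lower and red higher with torkinib, the colour scale ends at -1.5 and 1.5, and a dot marks an edgeR adjusted p under 0.05. The SNRP panel is blue in nearly all cells apart from SNRPN, while the hnRNP panel holds both colours.

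The families can also be read as summed levels, in normalised CPM, which give each gene's share of the counted reads after scaling by TMM factors. In such bulk samples fewer cells of a kind and less RNA per cell cannot be told apart. The SNRP genes summed to 513 and 471 CPM with torkinib in 94T778, against 845 and 819 CPM in untreated 94T778. In SKBR3 they summed to 871 and 814 CPM with torkinib and to 1419 and 1375 CPM untreated, and in AU565 to 613 and 631 CPM with torkinib and to 1033 and 1082 CPM untreated. The torkinib sums lay below the untreated ones in these lines as in A375 (1075 and 1013 CPM, against 1438 and 1399 CPM untreated) and SKMEL28 (733 and 709 CPM, against 981 and 985 CPM untreated). The LSM sums were lower in every line too, from the narrow gap of A375 (527 and 496 CPM with torkinib, 591 and 581 CPM untreated) to the wide one of AU565 (487 and 479 CPM with torkinib, 657 and 678 CPM untreated). HNRNP sums did not overlap between treatments in any line either. In SKBR3 the torkinib libraries, at 6793 and 7028 CPM, stood close to the untreated ones, at 7141 and 7365 CPM. Genes with many counts weigh most in such a sum. HNRNPA2B1 alone had a mean of 859 CPM with torkinib in SKBR3, against 1434 CPM untreated. Only 8 of the 19 HNRNP genes had a log2 fold change below 0 in that line.

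**Figure D3:**
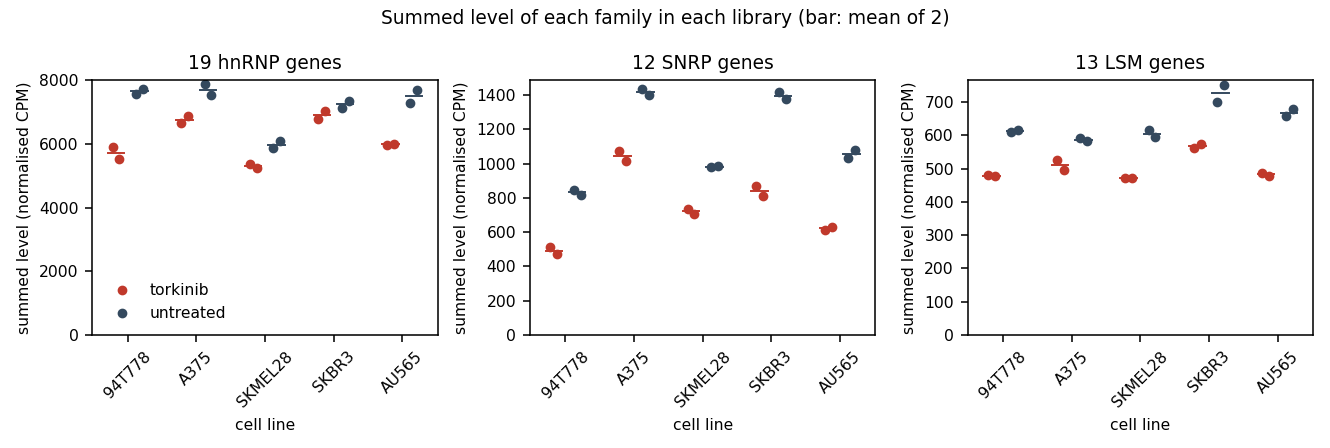
Summed normalised CPM of the 19 hnRNP, 12 SNRP and 13 LSM genes in each library (points) with the mean of the 2 libraries (bars), torkinib in red on the left and untreated in dark grey on the right of each cell line. The torkinib points lie below the untreated points in all 15 pairs of groups, by the smallest share for hnRNP genes in SKBR3. Genes with many counts weigh most in a sum, which does not show the direction of single genes.

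The Sm ring is formed by 7 proteins, SmB/B′, D1, D2, D3, E, F and G, encoded by SNRPB, SNRPD1, SNRPD2, SNRPD3, SNRPE, SNRPF and SNRPG. All 7 genes were called lower on the average, with log2 fold changes between -0.99 for SNRPG and -0.20 for SNRPD2. SNRPB had 88.2 and 86.6 CPM in torkinib-treated 94T778 cells, against 173 and 150.0 CPM in untreated 94T778 cells. It stood at 162 and 130.1 CPM with torkinib in A375, against 232 and 240.3 CPM in untreated A375, and at 169 and 172 CPM with torkinib in SKMEL28, against 222 and 212 CPM in untreated SKMEL28. In the breast lines SNRPB had 159 and 146 CPM in torkinib-treated SKBR3 cells, against 357 and 338 CPM in untreated SKBR3 cells, and 89.02 and 103 CPM in torkinib-treated AU565 cells, against 228 and 234 CPM in untreated AU565 cells. The torkinib libraries were the lower ones in every line, with the narrowest gap in SKMEL28 and the widest in SKBR3 and AU565. On the average of the lines SNRPB fell by 0.87 on the log2 scale (SE 0.04, edgeR adjusted p = 1.3e-20), by 0.35 in SKMEL28 and by 1.26 in AU565.

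SNRPG, encoding SmG, had 31.8 and 33.05 CPM in torkinib-treated SKMEL28 cells, against 71.2 and 72.8 CPM in untreated SKMEL28 cells, and 26.8 and 23.9 CPM in torkinib-treated AU565 cells, against 60.1 and 68.3 CPM in untreated AU565 cells. Its other levels were 23.1 and 22.3 CPM with torkinib in 94T778, against 40.7 and 39.5 CPM in untreated 94T778. They were 56.2 and 49.5 CPM with torkinib in A375, against 86.3 and 89.3 CPM in untreated A375, and 48.5 and 37.01 CPM with torkinib in SKBR3, against 83.8 and 78.5 CPM in untreated SKBR3. No torkinib library reached the untreated level of its own line, and SNRPG fell by 0.99 on the average (SE 0.0491, edgeR adjusted p = 1.26e-19). The 10 rows for processed copies of SNRPG held 0 to 1.21% of the counts of gene plus copies. SNRPF, for SmF, had log2 fold changes of -1.08 (94T778), -0.56 (A375), -0.84 (SKMEL28), -0.87 (SKBR3) and -1.04 (AU565), all called. SNRPD1 fell by 0.75 in 94T778 and 0.69 in SKBR3, and its average was -0.57 (SE 0.0453, edgeR adjusted p = 1.19e-13).

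The ring genes did not all move alike. SNRPE, for SmE, had 30.2 and 24.4 CPM in torkinib-treated 94T778 cells, against 59.5 and 58.4 CPM in untreated 94T778 cells, a log2 fold change of -1.11 (SE 0.117, edgeR adjusted p = 5.04e-10). In SKBR3 it had 106 and 95.2 CPM with torkinib and 91.02 and 98.99 CPM untreated, groups that overlapped, with 0.07 (SE 0.0977, edgeR adjusted p = 0.577). The remaining lines lay between, at -0.40, -0.36 and -0.48 in A375, SKMEL28 and AU565. SNRPD2 was called lower only in 94T778 (-0.58) and SKBR3 (-0.35), and in SKMEL28 its value was 0.11 (SE 0.0778, edgeR adjusted p = 0.25). SNRPD3 was called lower in 94T778 (-0.46), SKMEL28 (-0.38) and AU565 (-0.70), while A375 had 0.03. The SNRPD3 calls in 94T778 and SKMEL28 were lost without torkinib replicate 2 of the line (-0.32 and -0.29), that in SKMEL28 also without untreated replicate 2 (-0.23). The SNRPE call in SKMEL28 was lost without torkinib replicate 2 (-0.24) or untreated replicate 1 (-0.29).

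SNRPA encodes U1-A, which binds a stem loop of U1, and SNRPC encodes U1-C, which helps U1 to hold the splice site. Both were called lower in every line. SNRPA had 30.6 and 35.03 CPM in torkinib-treated 94T778 cells, against 75.02 and 68.6 CPM in untreated 94T778 cells, 53.6 and 50.3 CPM in torkinib-treated SKBR3 cells, against 139.6 and 134 CPM in untreated SKBR3 cells, and 36.1 and 40.1 CPM in torkinib-treated AU565 cells, against 86.4 and 83.02 CPM in untreated AU565 cells. On the log2 scale the gap was smaller in A375, at 60.8 and 61.3 CPM with torkinib and 107 and 114 CPM untreated, and smallest in SKMEL28, at 48.4 and 49.04 CPM with torkinib and 71.4 and 71.2 CPM untreated. The groups did not overlap in any line, and SNRPA fell by 1.40 in SKBR3, 1.13 in 94T778 and 0.55 in SKMEL28. On the average its value was -1.01 (SE 0.0411, edgeR adjusted p = 2.91e-22), and its adjusted p was the smallest of the 44 genes. SNRPC had an average of -0.81 (SE 0.0435, edgeR adjusted p = 1.92e-18) and line values of -0.92 (94T778), -0.28 (A375), -0.70 (SKMEL28), -1.16 (SKBR3) and -0.97 (AU565).

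The U2-specific members are SNRPA1, for U2-A′, and SNRPB2, for U2-B″, which bind U2 together. SNRPA1 had 32.3 and 27.1 CPM in torkinib-treated SKMEL28 cells, against 80.8 and 82.1 CPM in untreated SKMEL28 cells, and 27.8 and 24.8 CPM in torkinib-treated AU565 cells, against 60.2 and 66.01 CPM in untreated AU565 cells. Its levels were 29.7 and 21.04 CPM with torkinib in 94T778, against 42.04 and 39.7 CPM in untreated 94T778, 36.7 and 33.1 CPM with torkinib in A375, against 55.4 and 57.4 CPM in untreated A375, and 49.7 and 51.9 CPM with torkinib in SKBR3, against 84.4 and 78.8 CPM in untreated SKBR3. SNRPA1 fell by 1.45 in SKMEL28 (SE 0.109, edgeR adjusted p = 9.78e-14), the largest fall of any member in that line. SNRPB2 moved less and in nearly equal steps, with -0.24 (94T778), -0.38 (A375), -0.40 (SKMEL28), -0.33 (SKBR3) and -0.39 (AU565). It was 1 of 4 members whose response was not called different between lines (edgeR adjusted p = 0.799). Its untreated level was highest in A375, at 308 and 292 CPM (torkinib 232 and 229 CPM), and lowest in 94T778, at 76.2 and 75.5 CPM (torkinib 64.7 and 63.4 CPM).

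**Figure D4:**
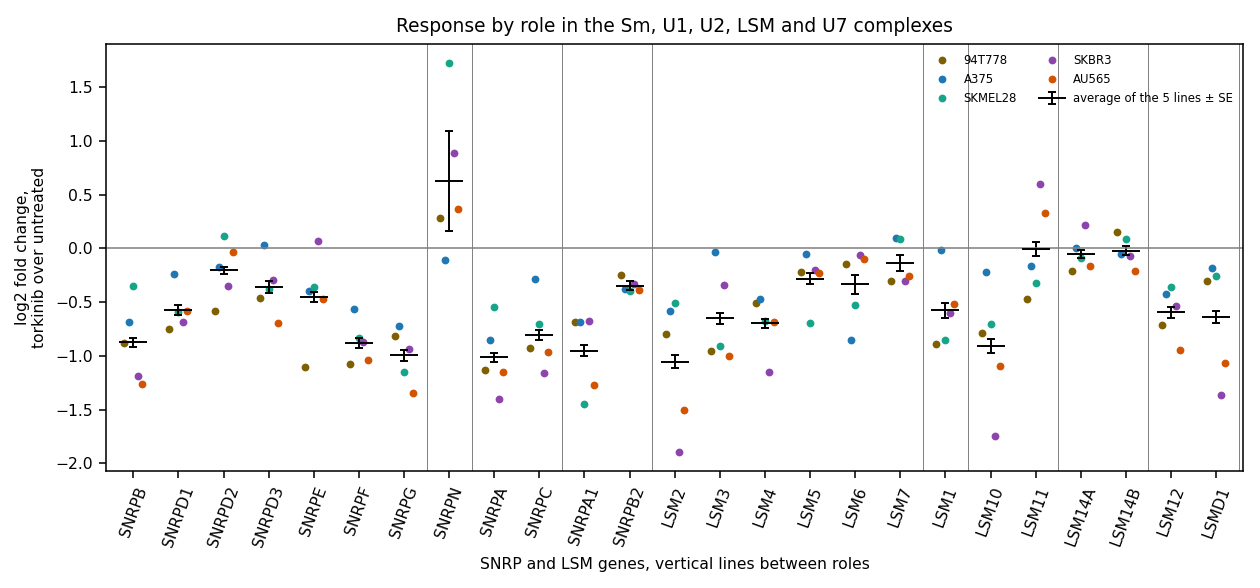
Log2 fold change, torkinib over untreated, of each SNRP and LSM gene in the 5 lines (coloured points) and on their average (black bar with its SE), ordered by role with vertical lines between roles. The Sm ring and the U1- and U2-specific genes lie below 0 on the average, LSM11, LSM14A and LSM14B lie near 0, and SNRPN lies above 0 with a wide error.

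SNRPN, whose protein SmN replaces SmB in neurons, was the only SNRP gene called higher in any line. It had 55 and 27 counts in torkinib-treated SKMEL28, against 7 and 13 counts in untreated SKMEL28, and was called higher there, at 1.72 (SE 0.347, edgeR adjusted p = 8.74e-05). As normalised levels these were 6.01 and 3.66 CPM with torkinib and 1.37 and 1.55 CPM untreated. In AU565 SNRPN had 0 and 1 counts with torkinib and 0 and 1 untreated, so it gave no usable fold there. In 94T778 and A375 it had 5.56 and 5.80 CPM and 7.47 and 6.96 CPM with torkinib, against 4.61 and 4.71 CPM and 7.78 and 7.88 CPM untreated, and was not called. In SKBR3 it had only 4 and 3 counts with torkinib and 3 and 1 counts untreated, and was not called. Its average, which takes in the fitted values of SKBR3 and AU565, was 0.63 (SE 0.467, edgeR adjusted p = 0.275). SNRPN overlaps SNURF, which had 19 counts in all, and the counting of the overlap is not given.

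The promoters of the members were read for short motifs, because so many SNRP genes moved together. RefSeq windows (build GRCh38.p14) were matched for 39 of the 44 genes, 1 of them, LSMD1, through another symbol; HNRNPA1, LSM1, LSM14A, LSM6 and SNRPD1 had no entry. The 250 bases before each start were searched on both strands. A gene was counted where any of its windows held the letters. The 39 genes had 59 windows, and windows per gene were not compared with those of all genes. The letters CCGGAAG, a core of sites for ETS factors, occurred in 7 of 11 SNRP genes (63.6%). They occurred in 2 of 18 HNRNP genes (11.1%) and in 1 of 10 LSM genes (10.0%), against 14% of 15842 protein-coding genes. SNRPA, SNRPD3, SNRPF and SNRPN did not hold them in any window, and of these SNRPA and SNRPF were called lower in all 5 lines. CCAAT occurred in 14 of 18 HNRNP genes (77.8%), 5 of 11 SNRP genes (45.5%) and 4 of 10 LSM genes (40%), against 40.2% of all genes. CACGTG, the E-box, occurred in 5 HNRNP genes (27.8%) and in no SNRP or LSM gene, against 9.73% of all genes. TTTCCCGC occurred in 1 member and 2.3% of all genes, and CGCATGCG in 2 members and 2.91% of all genes. The motifs were chosen with the responses known, overlaps between motifs were not removed, and a match describes letters and no binding. The 30-base sites of the SNRP genes are shown, since this is the family that fell in nearly every line. Each runs 5′ to 3′ on the strand of the gene, with CCGGAAG or its reverse complement CTTCCGG in capitals; in SNRPC the 2 overlap.
SNRPA1, chr15:101295343-101295372, minus strand: gcgcgccacgaCTTCCGGcaagaacgcccc
SNRPB, chr20:2470812-2470841, minus strand: agtgagctggaCCGGAAGtaggtttctacc
SNRPB2, chr20:16729920-16729949, plus strand: ctgccagagacCCGGAAGcatcgatcggct
SNRPB2, chr20:16729993-16730022, plus strand: tggctacgttgCTTCCGGtgcctggctccg
SNRPC, chr6:34757280-34757309, plus strand: ttaaatacgctCTTCCGGAAGcaccgacaa
SNRPD2, chr19:45692361-45692390, minus strand: ggtccatgcccCTTCCGGatgtaggcaggg
SNRPE, chr1:203861597-203861626, plus strand: ttctttattCCGGAAGttgctctcagaggc
SNRPG, chr2:70293381-70293410, minus strand: cacggcacctcCTTCCGGccgactagtctc
SNRPG, chr2:70293490-70293519, minus strand: cttcatttcttCTTCCGGtccgaggtcgcc
In SNRPB the motif began 41 bases before the start and in SNRPD2 63 bases, while in SNRPE it began 241 and in SNRPC 214 bases before it. The genes with the letters included SNRPG and SNRPA1, which fell by 0.99 and 0.95 on the average, and SNRPD2, which fell by 0.20.

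LSM2 to LSM7 belong to both heteromeric LSM rings, that of U6 in the nucleus and that of mRNA decay. On the average 5 of these 6 genes were called lower, all but LSM7. LSM2 had 10.7 and 11.2 CPM in torkinib-treated SKBR3 cells, against 41.2 and 40.3 CPM in untreated SKBR3 cells, and 10.3 and 11.9 CPM in torkinib-treated AU565 cells, against 33.7 and 29.5 CPM in untreated AU565 cells. In the other lines it stood at 16.2 and 14.99 CPM with torkinib in 94T778, against 26.3 and 27.8 CPM in untreated 94T778, 17.8 and 13.9 CPM with torkinib in A375, against 23.9 and 24.4 CPM in untreated A375, and 21.4 and 20.9 CPM with torkinib in SKMEL28, against 29.7 and 30.5 CPM in untreated SKMEL28. No line had overlapping groups, and the gap was widest in the breast lines. LSM2 fell by 1.89 in SKBR3 and by 1.51 in AU565, the largest falls of any member in these lines, and on the average by 1.06 (SE 0.0604, edgeR adjusted p = 1.05e-17).

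LSM3 was called lower in every line but A375. It had 35.5 and 32.5 CPM in torkinib-treated A375 cells, against 32.5 and 37.1 CPM in untreated A375 cells, groups that overlapped, with a log2 fold change of -0.03 (SE 0.122, edgeR adjusted p = 0.889). It had 23.4 and 23.2 CPM in torkinib-treated 94T778 cells, against 46.8 and 43.7 CPM in untreated 94T778 cells, and 35.95 and 34.6 CPM in torkinib-treated AU565 cells, against 64.3 and 77.7 CPM in untreated AU565 cells. Its fall was 0.96 in 94T778, 0.91 in SKMEL28 and 1.00 in AU565, on the log2 scale. In SKBR3 the value was -0.34, a call that was lost without untreated replicate 2 (-0.20, edgeR adjusted p = 0.194). LSM4 was called lower in all 5 lines, with -0.51 (94T778), -0.47 (A375), -0.67 (SKMEL28), -1.15 (SKBR3) and -0.68 (AU565). LSM5 was called lower in SKMEL28 (-0.69) and AU565 (-0.23), the AU565 call not without torkinib replicate 2 (-0.13), untreated replicate 1 (-0.27), untreated replicate 2 (-0.20) or 94T778 untreated replicate 2 (-0.23), and with none of the 3 other scalings (-0.22 to -0.11). LSM6, at 5.46 to 13.7 CPM over the 20 libraries, was called lower in A375 (-0.85) and SKMEL28 (-0.52). That call in SKMEL28 was lost without torkinib replicate 1 (-0.31) or either untreated library (-0.45 and -0.63), and under upper-quartile scaling (-0.44). LSM7 was called in no line and had an average of -0.14 (SE 0.0783, edgeR adjusted p = 0.147).

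LSM1, found in the decay ring alone, was called lower in all lines but A375. It had 8.97 and 9.20 CPM with torkinib and 16.8 and 16.99 CPM untreated in 94T778, and 15.8 and 16.6 CPM with torkinib and 18.1 and 14.8 CPM untreated in A375. The A375 groups overlapped and those of 94T778 did not. Line values were -0.89 (94T778), -0.02 (A375), -0.85 (SKMEL28), -0.60 (SKBR3) and -0.52 (AU565), of which the SKBR3 call was lost without untreated replicate 2 (-0.45) and the AU565 call without torkinib replicate 2 (-0.48). LSM8, which takes the place of LSM1 in the U6 ring, has no row under that symbol. RefSeq lists NAA38 as an older name of LSM8 and also as the present name of LSMD1. The row named NAA38 stood beside a separate LSMD1 row, so which gene it counts was not settled; its average was -0.23 (SE 0.0478, edgeR adjusted p = 1e-04).

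LSM10 and LSM11, the 2 proteins particular to the U7 ring, parted in the breast lines. LSM10 had 10.5 and 9.41 CPM in torkinib-treated SKBR3 cells, against 35.1 and 31.8 CPM in untreated SKBR3 cells, and 8.18 and 8.20 CPM in torkinib-treated AU565 cells, against 17.02 and 18.1 CPM in untreated AU565 cells. LSM11 had 17.3 and 18.03 CPM in torkinib-treated SKBR3 cells, against 11.03 and 12.2 CPM in untreated SKBR3 cells, and 25.7 and 19.9 CPM in torkinib-treated AU565 cells, against 17.3 and 18.5 CPM in untreated AU565 cells. In both lines the torkinib libraries were the lower ones for LSM10 and the higher ones for LSM11. LSM10 fell by 1.75 in SKBR3, while LSM11 rose by 0.60 there (SE 0.175, edgeR adjusted p = 0.00387). The LSM11 value of 0.33 in AU565 lay close to the threshold (edgeR adjusted p = 0.0479) and 15 of the 20 libraries, left out singly, ended that call, with the lowest value, 0.15, without AU565 torkinib replicate 1. Of the LSM11 falls in 94T778 (-0.48) and SKMEL28 (-0.33), that in 94T778 was lost without untreated replicate 2 (-0.22) or torkinib replicate 1 (-0.43), and that in SKMEL28 without any 1 of its own 4 libraries (-0.35 to -0.30) or the untreated libraries of A375 and AU565, and under upper-quartile scaling (-0.24). In 94T778 LSM10 fell by 0.79, in SKMEL28 by 0.70, and in A375 its value was -0.22 (SE 0.148, edgeR adjusted p = 0.251).

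LSM12, an LSM-domain protein outside these rings, had an average of -0.60 (SE 0.0519, edgeR adjusted p = 1.49e-12). LSMD1, now named NAA38 and a part of the NatC acetyltransferase, had 19.5 and 19.8 CPM in torkinib-treated SKBR3 cells, against 50.9 and 50.3 CPM in untreated SKBR3 cells, and 24.9 and 26.8 CPM in torkinib-treated AU565 cells, against 55.8 and 52.8 CPM in untreated AU565 cells. In 94T778, A375 and SKMEL28 it had 20.7 and 23.2, 21.03 and 18.6, and 20.2 and 24.9 CPM with torkinib, against 26.1 and 28.1, 23.4 and 22.1, and 25.03 and 27.9 CPM untreated. Untreated cells of the breast lines held more LSMD1 RNA than the other untreated lines, and with torkinib the 5 lines spanned 18.5 to 26.8 CPM. The falls were 1.36 in SKBR3 and 1.07 in AU565, against values of -0.30, -0.19 and -0.26 in 94T778, A375 and SKMEL28. The 94T778 call was lost when any 1 of 9 libraries was left out, with values of -0.36 to -0.22, and under upper-quartile scaling (-0.27) or library totals (-0.20). LSM14A and LSM14B, proteins of P-bodies, had averages of -0.05 and -0.02, neither called. LSM14A was called lower in 94T778 (-0.21) and higher in SKBR3 (0.22); the SKBR3 call was lost without untreated replicate 1 (0.04) or torkinib replicate 2 (0.15), and the 94T778 call without any 1 of its own 4 libraries (-0.23 to -0.20) or of 7 others (-0.21), and under upper-quartile scaling (-0.18) or library totals (-0.105). LSM14B was called in no line.

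**Figure D5:**
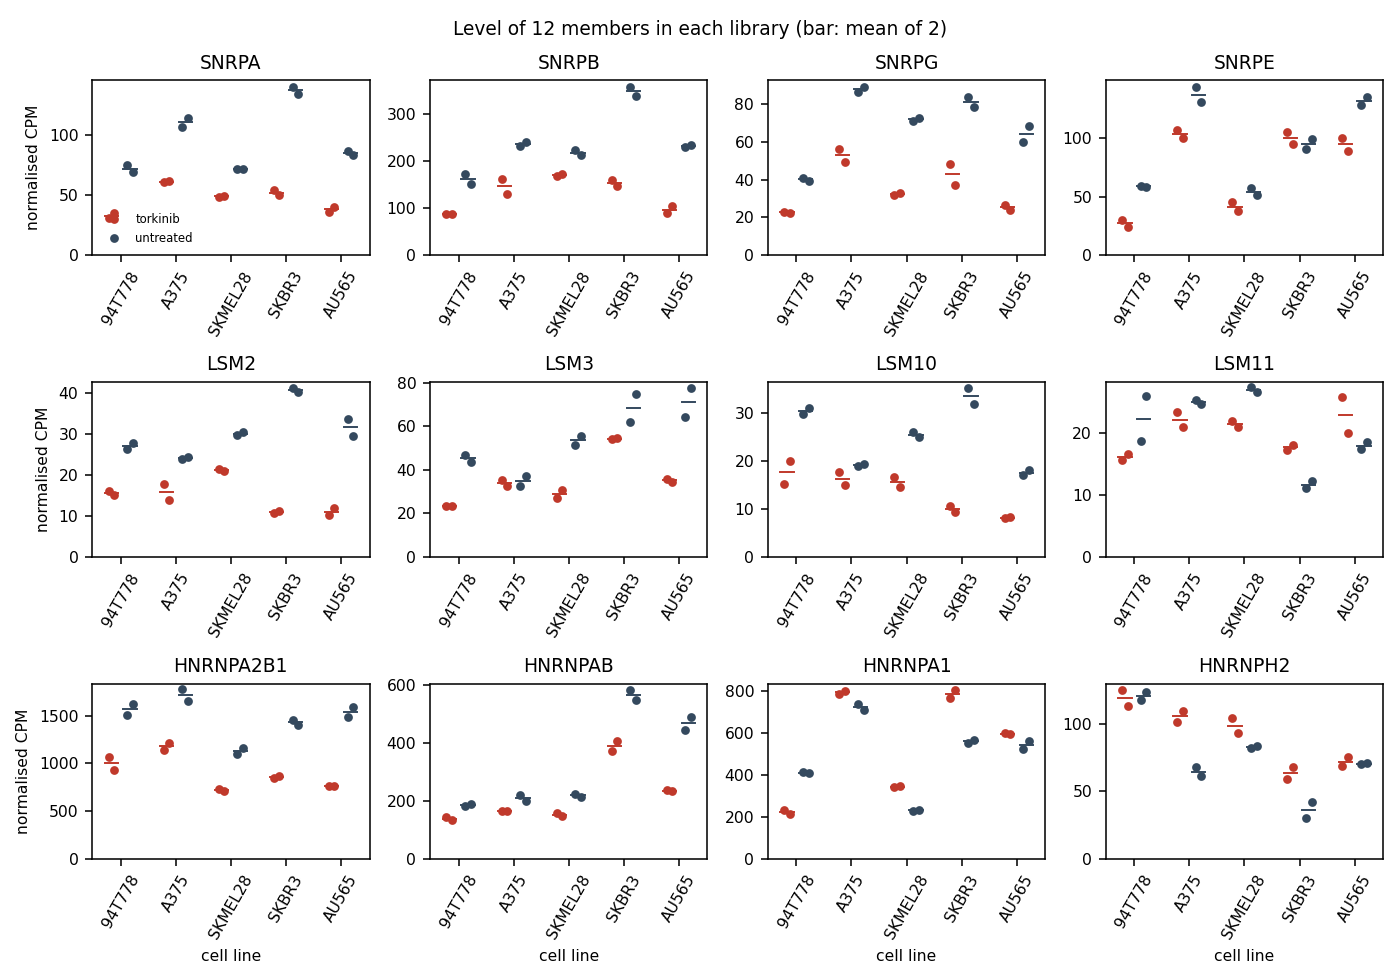
Normalised CPM of 12 members in each library (points) with the mean of the 2 libraries (bars), torkinib in red on the left and untreated in dark grey on the right of each cell line; every axis starts at 0. SNRPA, SNRPB, SNRPG, LSM2, HNRNPA2B1 and HNRNPAB are lower with torkinib in all 5 lines, whereas HNRNPA1 is lower in 94T778 alone and LSM11 is higher in SKBR3 and AU565.

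The HNRNP genes split. In SKBR3 31.6% of them were called lower and 26.3% higher, near the 26.7% and 24.6% of all genes. The shares called lower in 94T778, A375, SKMEL28 and AU565 were 78.9, 42.1, 36.8 and 63.2%, each above that of all genes with TMM scaling. Upper-quartile scaling gave 4 lower and 5 higher of the 19 in SKMEL28, with 3348 of all 16698 genes lower. Of the 7 lower calls in SKMEL28, 3 were lost with 1 library left out. Called lower in 1 line and higher in another were 4 of the 19, against 24% of all genes. HNRNPA2B1, HNRNPAB and HNRNPD, of the A/B and D group, and HNRNPL were called lower in all 5 lines. HNRNPA2B1, which binds and sorts RNA in nucleus and cytoplasm, had 763 and 761 CPM in torkinib-treated AU565 cells, against 1490 and 1598 CPM in untreated AU565 cells, and 852 and 866 CPM in torkinib-treated SKBR3 cells, against 1459 and 1408 CPM in untreated SKBR3 cells. It stood at 1073 and 926 CPM with torkinib in 94T778, against 1512 and 1626 CPM in untreated 94T778, 1146 and 1219 CPM with torkinib in A375, against 1786 and 1658 CPM in untreated A375, and 735 and 711 CPM with torkinib in SKMEL28, against 1096 and 1161 CPM in untreated SKMEL28. All torkinib libraries were below the untreated ones of their line, and HNRNPA2B1 fell by 0.72 on the average (SE 0.0344, edgeR adjusted p = 5.49e-20). HNRNPAB fell by 1.00 in AU565 and by 0.36 to 0.54 in the other lines, and its untreated levels were higher in SKBR3 (torkinib 370.4 and 404 CPM, untreated 581 and 546 CPM) than in 94T778 (torkinib 142 and 132 CPM, untreated 181 and 189.5 CPM). HNRNPD, also called AUF1, which binds AU-rich mRNA tails, had an average of -0.50 (SE 0.0343, edgeR adjusted p = 2.8e-15). HNRNPL, which binds CA-rich RNA, kept nearly the same step in each line, with -0.63 (94T778), -0.45 (A375), -0.57 (SKMEL28), -0.50 (SKBR3) and -0.67 (AU565), and its response was not called different between lines (edgeR adjusted p = 0.266).

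HNRNPA1, which opposes splice sites and is among the most abundant hnRNPs, went in opposite directions in different lines. It had 233 and 213 CPM in torkinib-treated 94T778 cells, against 412 and 406 CPM in untreated 94T778 cells. It had 339 and 346 CPM in torkinib-treated SKMEL28 cells, against 227 and 233 CPM in untreated SKMEL28 cells, and 766 and 804 CPM in torkinib-treated SKBR3 cells, against 552 and 564 CPM in untreated SKBR3 cells. The torkinib libraries were thus the lower ones in 94T778 and the higher ones in SKMEL28 and SKBR3, with no overlap in any of them. HNRNPA1 fell by 0.88 in 94T778 (SE 0.0729, edgeR adjusted p = 1.43e-12) and rose by 0.57 in SKMEL28 (SE 0.073, edgeR adjusted p = 3.34e-08) and by 0.49 in SKBR3. In A375 it had 786 and 799 CPM with torkinib and 734 and 707 CPM untreated, and in AU565 597 and 592 CPM with torkinib and 522 and 558 CPM untreated, neither called (0.14 and 0.14). The difference between lines had an edgeR adjusted p of 3.77e-14, the smallest of the 44 genes. Its average of 0.09 (edgeR adjusted p = 0.0118) lost its call without the filter on low counts (0.07, edgeR adjusted p = 0.142). The 28 rows for its processed copies held 2.92 to 4.36% of the counts of gene plus copies. HNRNPA1L2, a near copy of HNRNPA1 and so uncertain, had 8.18 and 7.47 CPM with torkinib and 4.25 and 5.90 CPM untreated in AU565, and its call there (0.64) was lost without untreated replicate 1 (0.39) or torkinib replicate 1 (0.58).

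HNRNPA3, a close relative of HNRNPA1 in sequence, had 196 and 183 CPM in torkinib-treated 94T778 cells, against 329 and 314 CPM in untreated 94T778 cells, and 200.5 and 217 CPM in torkinib-treated SKBR3 cells, against 154 and 161 CPM in untreated SKBR3 cells. It was thus lower with torkinib in 94T778 (-0.76) and higher in SKBR3 (0.40), with -0.37 in AU565, also called. HNRNPM had 186 and 165 CPM in torkinib-treated 94T778 cells, against 307 and 288 CPM in untreated 94T778 cells, and 278 and 283 CPM in torkinib-treated A375 cells, against 240.1 and 234 CPM in untreated A375 cells. It fell by 0.76 in 94T778 and by 0.39 in AU565. Its value of 0.24 in A375 was called higher, but not without torkinib replicate 2 (0.23) or untreated replicate 2 (0.22), and the call in SKMEL28 (-0.22) was lost without untreated replicate 2 (-0.17) or either torkinib library (-0.19 and -0.25), and under upper-quartile scaling (-0.14). HNRNPA0, which binds AU-rich mRNA ends, was the only member called higher in 4 lines, with 0.34 (A375), 0.28 (SKMEL28), 0.49 (SKBR3) and 0.25 (AU565). Its AU565 call was lost without any 1 of that line's 4 libraries (0.23 to 0.25), and its SKMEL28 call without torkinib replicate 1 (0.19) or untreated replicate 2 (0.17).

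The F/H group, which binds runs of G, held both directions as well. HNRNPH2 had 102 and 110.2 CPM in torkinib-treated A375 cells, against 68.3 and 61.4 CPM in untreated A375 cells, and 59.02 and 68.4 CPM in torkinib-treated SKBR3 cells, against 30.3 and 42.4 CPM in untreated SKBR3 cells. It rose by 0.71 in A375 and by 0.80 in SKBR3, the largest rises of any called member in those lines, with values of -0.02 in 94T778 and 0.03 in AU565, where its groups overlapped. Its SKMEL28 call (0.25) was lost without torkinib replicate 1 (0.17), either untreated library (0.24 and 0.27) or 94T778 untreated replicate 1 (0.25), and under library totals (0.22). HNRNPH1 rose by 0.51 in SKBR3, at 551 and 524 CPM with torkinib and 405 and 351 CPM untreated. Its smaller calls in 94T778 (-0.27) and AU565 (0.28) were lost without torkinib replicate 2 or untreated replicate 2 of 94T778 (-0.19 in each case) and without untreated replicate 2 of AU565 (0.21), the 94T778 call also under library totals (-0.16). HNRNPH3 was called lower in 4 lines, led by A375 at -0.62, of which the SKBR3 call was lost without either torkinib library (-0.20 and -0.23). HNRNPF was called lower in 94T778 (-0.35) and AU565 (-0.24), the AU565 call not without torkinib replicate 2 (-0.23) or untreated replicate 2 (-0.21), nor under upper-quartile scaling (-0.12).

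Of the remaining HNRNP genes, HNRNPR and HNRNPK were called lower in 4 and 3 lines and in neither direction in SKBR3 (0.16 and 0.16). The HNRNPR call in A375 was lost without torkinib replicate 1 or untreated replicate 1 (-0.18 each), the HNRNPK call in SKMEL28 without untreated replicate 2 (-0.18) or either torkinib library (-0.20 and -0.23), and that in AU565 without torkinib replicate 1 (-0.21) or untreated replicate 2 (-0.20). Upper-quartile scaling ended these 3 calls as well (-0.15 for HNRNPR, -0.13 and -0.10 for HNRNPK in SKMEL28 and AU565). HNRNPC, which binds runs of U, was called lower in 94T778 (-0.28) and A375 (-0.40), the 94T778 call not under library totals (-0.17). HNRNPU, a nuclear scaffold protein, had an average of 0.05 (SE 0.0339, edgeR adjusted p = 0.258), with 566 and 549.6 CPM with torkinib and 462 and 485 CPM untreated in SKMEL28, the only line where it was called (0.24). That call was lost without torkinib replicate 1 (0.22) or untreated replicate 1 (0.20). Its relatives HNRNPUL1 and HNRNPUL2 were called lower on the average, at -0.28 and -0.37.

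Across lines, the size of the response was called different for 40 of the 44 genes, against 68.4% of all genes tested. Whether genes of like counts are called as often was not tested. HNRNPL, SNRPB2, LSM7 and LSM14B were the 4 not called (edgeR adjusted p = 0.266, 0.799, 0.279 and 0.122). Among the 3 lines given 4 µM, A375, SKMEL28 and AU565, 32 members were called different, against 52.5% of all genes. HNRNPA1 stayed among them (edgeR adjusted p = 0.000352), while SNRPE was not called. Called lower in 1 line and higher in another were 6 members, HNRNPA1, HNRNPA3, HNRNPH1, HNRNPM, LSM11 and LSM14A, against 24% of all genes. No SNRP gene was among the 6. Only LSM7 and LSM14B were called in no line, against 11.5% of all genes. The median log2 fold change of the SNRP genes was -0.79 (94T778), -0.39 (A375), -0.47 (SKMEL28), -0.68 (SKBR3) and -0.83 (AU565). That of the HNRNP genes was -0.43 (94T778), -0.14 (A375), -0.16 (SKMEL28), 0.13 (SKBR3) and -0.27 (AU565). SKBR3 thus had an SNRP median of -0.68, between those of the other lines, beside the only HNRNP median above 0. Upper-quartile scaling moved the HNRNP split to 7 lower and 6 higher in A375, 4 and 5 in SKMEL28, and 10 and 5 in AU565. Over all genes it gave 3348 lower and 4078 higher in SKMEL28 (3953 and 3402 with TMM) and 4143 lower and 5253 higher in AU565 (4779 and 4497 with TMM). Library totals moved the HNRNP split to 9 and 4 in SKMEL28, with 4188 lower and 3193 higher over all genes, and gave 7 lower and 1 higher for the LSM genes in 94T778, with 3247 lower and 4826 higher over all genes (3970 and 3968 with TMM).

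The partners of these proteins were followed on the average of the 5 lines from lists of other splicing and decay genes. An average does not show how far the lines differed. U2 and branch-site proteins had 10 of 15 called lower and 3 higher, against 28.1% and 28.4% of all genes (median -0.19), led by PHF5A (-0.62) and SF3B5 (-0.53), both of the SF3b complex. The SMN complex and the methylosome, which load Sm rings onto RNA, had 8 of 14 lower and 2 higher (median -0.17). WDR77 was at -0.67 and GEMIN4 at -0.52. By line the medians of this list were -0.37 (94T778), 0.03 (A375), -0.11 (SKMEL28), -0.32 (SKBR3) and -0.14 (AU565). U1, U5 and tri-snRNP proteins had 9 of 20 lower and 5 higher (median -0.09), with SNRNP25, of the minor spliceosome, at -1.17 and USP39 at -0.67. The Prp19 complex and catalytic factors had 10 of 22 lower and 5 higher, and SYF2 rose by 0.89 where BUD31 fell by 0.52. SR proteins, which promote splice site use, had 7 of 14 lower and 5 higher, and SRSF6 rose by 0.62 while SRSF1 fell by 0.61. Other hnRNP-type RNA-binding proteins had 10 of 19 lower and 4 higher, with EWSR1 at -0.46 and SFPQ at -0.43. Decapping and decay partners of the LSM1 ring had 3 of 11 lower and 7 higher (median 0.23). DCPS, the scavenger of caps, fell by 1.13 and PATL1 by 0.54. By line the medians of these partners were -0.08 (94T778), -0.03 (A375), -0.02 (SKMEL28), 0.56 (SKBR3) and 0.22 (AU565), above zero in the breast lines alone. U6 and U7 RNA partners had 3 of 7 lower and 3 higher, with MEPCE at 0.26 and SLBP, the histone stem-loop binding protein, at -0.28.

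SNRNP70, for the U1-70K protein, falls outside the name rule and was picked after its values were seen, beside the U1 members SNRPA and SNRPC. It had 412 and 419 CPM with torkinib in SKMEL28, against 224 and 218 CPM in untreated SKMEL28. It was called higher in all 5 lines, at 0.28 (94T778), 0.31 (A375), 0.91 (SKMEL28), 0.43 (SKBR3) and 0.71 (AU565), with an average of 0.53 (SE 0.0399, edgeR adjusted p = 3.01e-14). The RNAs of the 3 U1-specific proteins thus did not change in 1 direction: SNRPA and SNRPC were lower with torkinib in every line, and SNRNP70 was higher.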

How the data were processed

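Total RNA, extracted with a Qiagen RNeasy kit per the labels' protocols, was sequenced in 20 libraries, 2 for each of 10 groups. The deposited files hold whole-number counts of reads per gene symbol, 1 file per library, with no normalization by the authors. The submitters' processing notes name the build hg19 (GRCh37) and the tools HTSeq 0.6.1, HISAT2 2.04 and limma 3.34.9. What each tool did, which annotation was counted and whether strand was used is not given in the sources used here. A summary line of ambiguous reads held 1.08 to 1.57% of each library, outside genes. How far a gene's reads were kept apart from those of a gene that overlaps it or runs antisense to it is not known. Reads aligned at more than 1 place, 9.32 to 15.1% of each library, stood in the 5 summary lines and not in genes, as did all but 47.8 to 62.4% of reads, and these lines were left out of library sizes and tests. Genes with near-identical copies, such as HNRNPA1 and HNRNPA1L2, are therefore uncertain.

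Counts were tested in R 4.3.3 with edgeR 4.0.16 (TMM factors, filterByExpr, quasi-likelihood test, 10 group means in 1 model, Benjamini-Hochberg adjustment over 16698 genes, threshold 0.05), within lines, on the average of lines and for any difference between lines. The common biological coefficient of variation was 0.0547, with 10 residual and 25.6 prior degrees of freedom, so each group's 2 libraries borrowed precision from all genes and groups. Levels are TMM-normalised CPM, and marker sums use library totals. Each SE, also in the figures, was worked back as the absolute log2 fold change over the square root of edgeR's F statistic. The alternatives were DESeq2 1.42.0 (test and size factors), limma-voom 3.58.1, upper-quartile and library-total scaling, no filter, libraries of 1 line only, the replicate number as a block, and each library left out. The fit was also run on counts simulated with the same fitted spread in all groups. Such counts lack the gap between the untreated SKBR3 libraries and so cannot check calls in that line. The labels do not say that replicates were separate cultures; p-values therefore reflect only how far these libraries differ, which may be technical. Promoter letters were counted in RefSeq windows of GRCh38.p14; no coordinates of the deposited build were used.

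Members are counted in full. Named with values were, per family, the 4 with the smallest average p and the 3 with the smallest p for a difference between lines, then those called in both directions, the largest called rise and fall per line, those called the same way in all 5 lines, and 2 genes of each partner list. Further members are given to describe each role. The members, lists and motifs were chosen with earlier results of these data known.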

Additional observations from a re-analysis of the deposited data

Results flagged for a closer look

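The response to torkinib, torkinib against untreated, differed between cell lines for 40 of the 44 genes in edgeR's test of any difference between the 5 lines, with 68.4% of all genes tested past the same threshold. The adjusted p was 3.77e-14 for HNRNPA1, which was lower with torkinib in 94T778 (-0.88) and higher in SKMEL28 (0.57). It was 4.2e-10 for HNRNPA3, lower in 94T778 (-0.76) and higher in SKBR3 (0.40), and 1.85e-09 for HNRNPM, lower in 94T778 (-0.76). HNRNPH1, with an adjusted p of 6.62e-07, LSM11, with 0.000158, and LSM14A, with 0.0145, were also called in both directions, in part on calls that 1 library decided.

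Among the SNRP genes the test gave 1.77e-07 for SNRPB, which fell by 1.26 in AU565 and by 0.35 in SKMEL28. It gave 1.05e-06 for SNRPE, which fell by 1.11 in 94T778 and was not called in SKBR3 (0.07), and 5.72e-06 for SNRPA, which fell by 1.40 in SKBR3 and by 0.55 in SKMEL28. Among the LSM genes it gave 8.25e-08 for LSM2, which fell by 1.89 in SKBR3 and by 0.51 in SKMEL28. LSMD1 had 1.03e-07, with falls of 1.36 in SKBR3 and 1.07 in AU565. LSM3 had 2.34e-06 and was not called in A375 (-0.03). The lines differ in dose as well as in origin, and except among A375, SKMEL28 and AU565 these cannot be told apart.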

How the results depend on the processing

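None of the 191 calls of a member in a line or on the average changed sign under any alternative run. Of the 191, 190 were kept with DESeq2 size factors, 174 with upper-quartile scaling, 180 with library totals, 180 without the filter, 181 with DESeq2, 189 with limma-voom, 187 without untreated replicate 1 of both A375 and SKBR3, and 184 without untreated replicate 1 of A375 and replicate 2 of SKBR3. These last 2 alternatives were added after the data were seen, because the untreated libraries of A375 and of SKBR3 differed within each pair. They gave 34 lower and 5 higher, and 34 lower and 3 higher, on the average, and the second gave 20 lower and 11 higher in SKBR3. With libraries of 1 line only 150 of 154 line calls were kept. The 4 lost were all in SKBR3: HNRNPH3 (-0.19), LSM3 (-0.32), SNRPB2 (-0.31) and LSM14A (0.24). Their edgeR adjusted p ran from 0.0518 to 0.123. The untreated libraries of SKBR3 stood further apart than those of any other group. The replicate block gave 33 lower and 4 higher on the average and 35 lower in 94T778, as without it, and kept 189 of 191 calls; replicate numbers did not pair libraries (correlations of deviations -0.0551 to 0.0676).

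Several counts of members called higher moved. Those in 94T778 went up to 2 with library totals and those in A375 to 6 with upper-quartile scaling; without the filter AU565 had 2, the average 2 and the HNRNP average 2. The SNRP average had 1 higher with limma-voom. Leaving out single libraries gave 2 to 6 higher in SKMEL28, 6 to 11 in SKBR3 and 1 to 4 in AU565. Lower calls ranged over 30 to 36 in 94T778, 18 to 22 in A375, 19 to 29 in SKMEL28, 20 to 25 in SKBR3, 27 to 32 in AU565 and 33 to 34 on the average. The causes were not tested. The omission of 1 library ended 6 of 35 lower calls in 94T778, 3 of 21 in A375, 8 of 26 in SKMEL28, 4 of 22 in SKBR3, 4 of 30 in AU565 and 0 of 33 on the average. Counts limit SNRPN, with 467 in all libraries.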
